A study of Homo sapiens with 18 samples.

Results

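Expression of 33 genes of purine and pyrimidine nucleotide synthesis was followed in RNA sequencing of 2 established human monocytic lines, U937, derived from a histiocytic lymphoma, and THP-1, derived from an acute monocytic leukemia. The 33 genes were chosen by function, with earlier results of these data known. They were looked up by symbol through their Ensembl identifiers, and all 33 were found among the 18670 genes of the deposited count table. They fell into 7 roles: 8 genes of the de novo purine route, 5 of the branches to AMP and GMP, 4 of purine salvage, 5 of the de novo pyrimidine route, 4 of pyrimidine salvage, 2 that set thymidylate and dUTP, and 5 nucleotide kinases. The series examined expression when S100A9, a calcium-binding protein of myeloid cells, is lowered or raised, and when the small molecule Adavivint is added.

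All cells carried a lentiviral vector and had been selected with puromycin at 2 µg/mL, begun 48 h after transduction and kept for 24 h or longer. There were 6 groups of 3 libraries. U937 cells carried a knockdown vector against S100A9 (shS100A9), set against U937 cells with an empty vector (EV). THP-1 cells carried an S100A9 overexpression vector (OE) or an empty vector, and each was profiled with Adavivint at 1 µM for 36 h (OE+Ada, EV+Ada) and without it (OE, EV). The labels name no vehicle for the untreated libraries, do not say how many shRNA sequences or clones were used, and do not say whether replicates were separate cultures. The p-values therefore measure the spread between these libraries, which may be technical. Adavivint (lorecivivint) is known as a Wnt pathway inhibitor that acts on CLK and DYRK kinases.

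Cells make purines by building the ring step by step on phosphoribosyl pyrophosphate (PRPP), an activated ribose, up to IMP, from which AMP and GMP branch. They make pyrimidines by building the ring before PRPP is joined to it, which gives UMP, then UTP and CTP, and thymidylate from dUMP. Salvage enzymes return free bases and nucleosides to the same pools, and nucleotide kinases pass phosphate between them. Proliferating leukemia cells are known for a high demand on these routes, several of which are targets of antileukemic drugs.

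Each library held between 38.4 and 84.4 M counts, with M for 1e6. Levels are given as CPM, counts per 1e6 scaled by TMM factors. Rises and falls are thus relative to the other RNA of a library, not amounts per cell. The 33 genes took 0.122% to 0.137% of counts in the drug-treated libraries, against 0.354% to 0.448% in all untreated libraries of both lines. S100A9 followed the labels: it measured 0.215, 0.400 and 0.0595 CPM in shS100A9 libraries and 6.83, 4.49 and 7.10 CPM in U937 EV libraries, and 28.1 ± 1.57 CPM in THP-1 OE and 6.38 ± 2.79 CPM in THP-1 EV (SD, n = 3 each). Under the drug S100A9 measured 107 ± 5.15 CPM in OE+Ada and 13.9 ± 1.13 CPM in EV+Ada cells. The 8 myeloid markers examined summed to 1492 to 1553 CPM in OE+Ada and 1115 to 1173 CPM in OE libraries, to 1428 to 1596 CPM in EV+Ada and 1141 to 1143 CPM in EV libraries, and to 867 to 942 CPM in shS100A9 and 954 to 1152 CPM in U937 EV libraries, without overlap in any of these pairs. The lower sum in shS100A9 cells rested on LYZ, with 199.5, 196 and 142 CPM against 489, 242.5 and 521 CPM in U937 EV libraries. By mean, PTPRC, CD33 and MPO were higher in shS100A9 cells, and LYZ, SPI1, CEBPA, CSF1R and ITGAM were lower. The part of these markers in the drug and knockdown results was not tested. The markers of lymphoid, erythroid, epithelial and stromal cells summed to 5.04 CPM or less each, with CD3E, CD3D and EPCAM not matched in the table. In U937 cells, EV replicate 2 and shS100A9 replicate 3 stood apart from the others of their groups. The chi-square per degree of freedom between replicates was 135 to 225 for pairs that held 1 of these libraries, against 8.05 and 13.1 for the pairs without them and 7.18 to 37.2 in THP-1 cells. Results in U937 cells are therefore given with and without those 2 libraries. In bulk samples, fewer cells of a type and less RNA per cell cannot be told apart.

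Promoter windows from RefSeq (GRCh38.p14) were available for 31 of the 33 genes. Each window holds 300 bases, from 250 before to 50 after an annotated start. IMPDH2 and ADSL had no window. The windows of PAICS and PPAT, which encode steps of the purine route and are transcribed away from each other, lay at chr4:56435502-56435801 on the plus strand and chr4:56435566-56435865 on the minus strand and shared 236 bases. The PAICS window is shown because this gene had one of the largest falls under the drug. NME1 and NME2, neighbouring genes on the plus strand of chromosome 17, are shown because their responses differed (chr17:51153309-51153608 and chr17:51165286-51165585). The DUT window (chr15:48331947-48332246, plus strand) is shown because it held 2 matches to an E2F-type motif. UCK1 (chr9:131531214-131531513, minus strand) and DGUOK (chr2:73926630-73926929, plus strand) are shown because they were higher under the drug. Where a gene had several windows, the window with the most matches is printed, or the first listed where they tied. Capitals mark matches on either strand to the E-box CACGTG or to the E2F-type motifs TTTCCCGC and TTTGGCGC.
PAICS: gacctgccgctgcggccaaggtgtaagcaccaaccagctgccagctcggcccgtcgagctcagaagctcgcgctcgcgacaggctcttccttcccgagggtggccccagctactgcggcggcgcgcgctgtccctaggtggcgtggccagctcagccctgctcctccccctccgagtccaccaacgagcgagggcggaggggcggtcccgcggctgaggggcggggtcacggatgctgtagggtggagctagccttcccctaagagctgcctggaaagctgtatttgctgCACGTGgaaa
NME1: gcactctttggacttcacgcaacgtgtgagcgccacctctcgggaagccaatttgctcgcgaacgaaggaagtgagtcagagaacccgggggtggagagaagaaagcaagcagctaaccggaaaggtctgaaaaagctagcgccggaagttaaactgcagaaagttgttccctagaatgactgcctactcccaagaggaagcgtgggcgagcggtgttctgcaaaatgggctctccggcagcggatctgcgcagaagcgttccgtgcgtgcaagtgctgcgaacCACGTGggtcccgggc
NME2: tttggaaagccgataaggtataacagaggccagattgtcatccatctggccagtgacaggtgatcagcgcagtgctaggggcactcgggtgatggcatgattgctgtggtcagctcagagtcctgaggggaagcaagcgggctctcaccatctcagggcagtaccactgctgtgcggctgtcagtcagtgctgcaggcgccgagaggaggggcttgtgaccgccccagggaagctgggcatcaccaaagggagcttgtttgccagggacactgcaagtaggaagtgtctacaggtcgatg
DUT: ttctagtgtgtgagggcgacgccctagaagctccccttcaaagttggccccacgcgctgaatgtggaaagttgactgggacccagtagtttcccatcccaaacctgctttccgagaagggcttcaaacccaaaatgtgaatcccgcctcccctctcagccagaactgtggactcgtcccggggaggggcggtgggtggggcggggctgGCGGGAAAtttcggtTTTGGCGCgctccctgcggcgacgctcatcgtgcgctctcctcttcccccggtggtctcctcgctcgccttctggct
UCK1: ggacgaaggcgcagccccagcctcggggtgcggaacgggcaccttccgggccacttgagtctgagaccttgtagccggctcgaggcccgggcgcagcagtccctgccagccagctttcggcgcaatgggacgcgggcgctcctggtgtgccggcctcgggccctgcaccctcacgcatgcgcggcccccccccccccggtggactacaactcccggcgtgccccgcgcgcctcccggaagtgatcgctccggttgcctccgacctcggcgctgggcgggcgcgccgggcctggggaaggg
DGUOK: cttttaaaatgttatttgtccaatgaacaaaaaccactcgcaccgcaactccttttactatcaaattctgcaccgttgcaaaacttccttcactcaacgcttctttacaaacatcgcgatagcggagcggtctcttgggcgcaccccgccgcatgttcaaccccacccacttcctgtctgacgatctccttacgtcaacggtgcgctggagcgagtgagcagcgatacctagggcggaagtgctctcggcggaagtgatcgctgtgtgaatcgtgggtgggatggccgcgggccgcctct

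The E-box letters were present in windows of 6 of the 31 genes (19.4%), namely AK4, ATIC, DHODH, NME1, PAICS and PPAT, against 8.78% of 27305 genes with a window. The E2F-type letters were present in 4 of the 31 (12.9%), DUT, GART, PRPS2 and TYMS, against 2.75% of those genes. The capitals in the PAICS window begin at base 291 and those in the NME1 window at base 285, after the annotated start. The PAICS site lies in the bases shared with the PPAT window and reads the same on both strands, so it is counted for both genes. In the DUT window the matches begin at bases 209 and 224, before the annotated start, and the first of them reads on the minus strand. The printed NME2, UCK1 and DGUOK windows held neither motif. These matches describe letters in a window and are not evidence of binding.

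Untreated cells of both lines expressed all 33 genes, with levels per kilobase of exon that spread widely. In THP-1 EV cells TYMS, which makes thymidylate, had 116 ± 11.3 CPM per kilobase and DUT, which removes dUTP and supplies dUMP, had 103 ± 6.06 CPM per kilobase (SD, n = 3). These neighbours in the order differed by less than their summed spread. IMPDH2, which commits IMP to guanine nucleotides, followed at 90.3 ± 3.88 and NME2, a nucleoside diphosphate kinase, at 75.1 ± 5.67 CPM per kilobase. At the low end stood TK2, the mitochondrial thymidine kinase, at 2.36 ± 0.150 CPM per kilobase and ADSS1, the adenylosuccinate synthase best known from muscle, at 0.193 ± 0.0648 CPM per kilobase. Within pairs of related enzymes, the level per kilobase of IMPDH2 exceeded that of IMPDH1 (32.8 ± 3.55), CTPS1 (15.3 ± 1.79) exceeded CTPS2 (2.63 ± 0.195), UCK2 (21.3 ± 0.703) exceeded UCK1 (5.38 ± 0.0339), and TK1 (34.9 ± 3.35) exceeded TK2. ADSS2 (32.9 ± 1.79) exceeded ADSS1 in the same way, while PRPS1 (27.4 ± 1.70) and PRPS2 (25.6 ± 2.04) differed by less than their summed spread. In U937 EV cells the same 3 genes led the order, TYMS at 111 ± 7.56, DUT at 109 ± 3.30 and IMPDH2 at 104 ± 14.3 CPM per kilobase. In EV+Ada cells the order was led by NME2 at 62.5 ± 2.66, IMPDH2 at 45.5 ± 5.91, TK1 at 40.9 ± 1.36 and DGUOK at 40.0 ± 1.85 CPM per kilobase, of which the last 3 stood within their summed spread of a neighbour.

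Most of the 33 genes were lower under Adavivint in THP-1 cells with either vector. A gene is said to have risen or fallen where its adjusted p in edgeR's quasi-likelihood test, with Benjamini-Hochberg adjustment over all genes tested, was under 0.05. With the overexpression vector (OE+Ada against OE), 27 genes fell and 3 rose, where 41.3% of the 15403 genes tested fell and 43.4% rose. With the empty vector (EV+Ada against EV), 30 genes fell and 3 rose, where 41.1% of all genes tested fell and 44.2% rose. The median log2 fold change over the 33 genes was -1.96 in OE+Ada against OE and -1.75 in EV+Ada against EV, beside 0.04 and 0.06 over all genes tested. A fall of at least 2-fold that passed the test was seen for 26 genes in OE+Ada cells (22.8% of all genes tested) and for 24 genes in EV+Ada cells (21.7%). A fall of at least 4-fold was seen for 15 genes in OE+Ada cells (8.82% of all genes tested) and for 11 genes in EV+Ada cells (8.07%). The summed level of the 33 genes was 1254 to 1297 CPM in OE+Ada libraries and 3724 to 3767 CPM in OE libraries, and 1268 to 1358 CPM in EV+Ada libraries and 3646 to 4200 CPM in EV libraries.

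**Figure D1:**
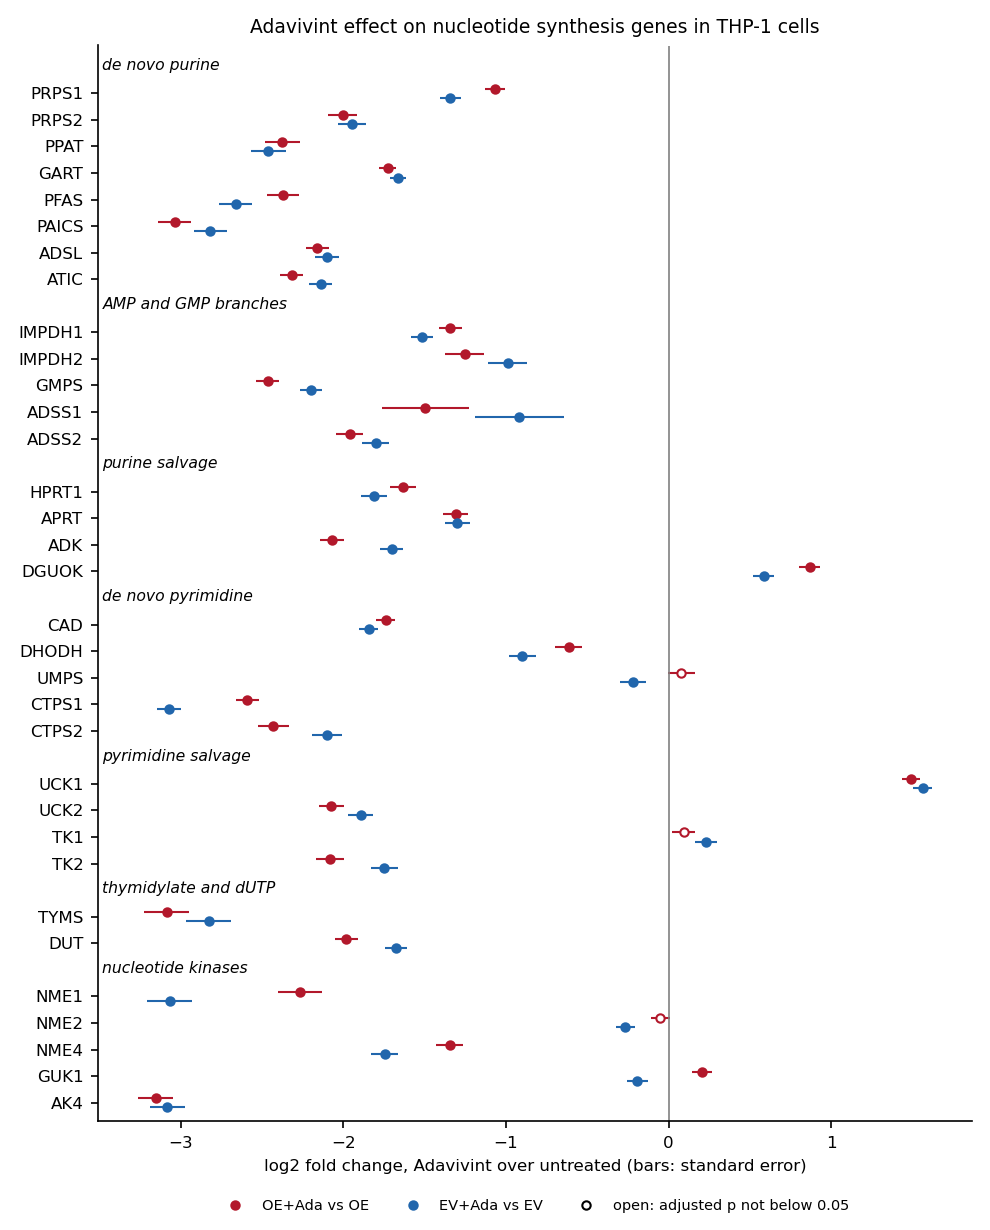
Log2 fold change (x axis, Adavivint over untreated) of the 33 genes by role in THP-1 cells with the overexpression vector (red) and the empty vector (blue); points are estimates from 3 against 3 libraries, bars are standard errors and open points did not pass the test. Most points lie between -1 and -3, while UCK1 (1.49 with the overexpression vector and 1.56 with the empty vector) and DGUOK (0.87 with the overexpression vector and 0.59 with the empty vector) lie to the right of 0.

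All 8 genes of the de novo purine route fell with both vectors, and each fell at least 2-fold. PAICS, which carries out a carboxylation and the following ligation in ring building, had 35.3, 40.1 and 46.1 CPM in OE+Ada libraries, against 319, 340.4 and 340.3 CPM in OE libraries. With the empty vector it had 54.7, 51.2 and 45.4 CPM in EV+Ada libraries, against 399, 344 and 325 CPM in EV libraries. Every treated library lay below every untreated one. The fall of PAICS was 8.22-fold in OE+Ada cells (log2 fold change -3.04, SE 0.10, adjusted p = 3.11e-12) and 7.06-fold in EV+Ada cells (log2 fold change -2.82, SE 0.10, adjusted p = 5.8e-12). PPAT, the amidotransferase that commits PRPP to purines, had 11.0 ± 0.700 CPM in OE+Ada and 57.1 ± 4.16 CPM in OE cells, and 11.9 ± 1.93 CPM in EV+Ada and 65.6 ± 5.26 CPM in EV cells (SD, n = 3 each). PFAS, the enzyme of the formylglycinamidine step, fell 5.18-fold in OE+Ada cells (log2 fold change -2.37, SE 0.10, adjusted p = 2.98e-11) and 6.33-fold in EV+Ada cells (log2 fold change -2.66, SE 0.10, adjusted p = 1.01e-11). ADSL, the adenylosuccinate lyase that serves both the ring route and the AMP branch, fell 4.47-fold in OE+Ada and 4.29-fold in EV+Ada cells. ATIC, which closes the ring to IMP, fell 4.99-fold in OE+Ada and 4.41-fold in EV+Ada cells. GART, which carries out several early steps, fell 3.31-fold in OE+Ada and 3.17-fold in EV+Ada cells. Of the enzymes that make PRPP, PRPS2 fell 4.02-fold in OE+Ada and 3.86-fold in EV+Ada cells, and PRPS1 fell 2.10-fold in OE+Ada and 2.54-fold in EV+Ada cells. Of the exon bases of ADSL, 18.9% are shared with another annotated gene on the same strand, so its reads may be split.

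All 5 genes of the AMP and GMP branches also fell with both vectors. GMPS, which makes GMP, fell the most in this role, 5.52-fold in OE+Ada cells (log2 fold change -2.47, SE 0.070, adjusted p = 6.15e-13) and 4.60-fold in EV+Ada cells (log2 fold change -2.20, SE 0.069, adjusted p = 1.59e-12). IMPDH2 fell 2.38-fold in OE+Ada cells and 1.99-fold in EV+Ada cells. Its level was 156, 112 and 129 CPM in OE+Ada libraries, against 360.1, 279 and 307 CPM in OE libraries, and 115.5, 145 and 118 CPM in EV+Ada libraries, against 263, 245 and 243 CPM in EV libraries. The treated and untreated ranges of IMPDH2 did not overlap. Its paralogue IMPDH1 fell 2.53-fold in OE+Ada and 2.86-fold in EV+Ada cells. ADSS2, which starts the AMP branch, fell 3.90-fold in OE+Ada and 3.49-fold in EV+Ada cells. ADSS1 was near the low end of detection, with 0.622 ± 0.114 CPM in OE+Ada and 1.76 ± 0.302 CPM in OE cells, and 0.587 ± 0.0692 CPM in EV+Ada and 1.12 ± 0.374 CPM in EV cells, and passed the test in both comparisons (adjusted p = 0.000134 in OE+Ada and 0.00656 in EV+Ada cells).

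Purine salvage split in direction. HPRT1, which salvages hypoxanthine and guanine, fell 3.10-fold in OE+Ada cells (log2 fold change -1.63, SE 0.079, adjusted p = 1.13e-10) and 3.51-fold in EV+Ada cells (log2 fold change -1.81, SE 0.079, adjusted p = 4.23e-11). APRT, which salvages adenine, fell 2.48-fold in OE+Ada and 2.46-fold in EV+Ada cells. ADK, which phosphorylates adenosine, fell 4.19-fold in OE+Ada and 3.25-fold in EV+Ada cells. DGUOK, the mitochondrial kinase of deoxyguanosine, went the other way. It had 58.8, 69.4 and 61.2 CPM in OE+Ada libraries, against 33.8, 35.3 and 34.5 CPM in OE libraries. It had 61.0, 55.6 and 58.0 CPM in EV+Ada libraries, against 37.7, 39.6 and 39.1 CPM in EV libraries. All 6 treated libraries lay above all 6 untreated ones, and DGUOK rose in OE+Ada cells (log2 fold change 0.87, SE 0.064, adjusted p = 1.1e-08) and in EV+Ada cells (log2 fold change 0.59, SE 0.064, adjusted p = 8.8e-07).

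In the de novo pyrimidine route the last enzyme, CTP synthase, fell the most, and UMP synthase stayed close to its untreated level. CTPS1, the CTP synthase known for its role in dividing lymphocytes, had 23.4, 24.1 and 23.2 CPM in OE+Ada libraries, against 142, 142 and 142 CPM in OE libraries. It had 21.6, 21.4 and 20.0 CPM in EV+Ada libraries, against 199.5, 169 and 160.5 CPM in EV libraries. No treated library overlapped an untreated one, and the fall was 6.02-fold in OE+Ada cells (log2 fold change -2.59, SE 0.073, adjusted p = 5.59e-13) and 8.41-fold in EV+Ada cells (log2 fold change -3.07, SE 0.074, adjusted p = 1.79e-13). Its paralogue CTPS2 fell 5.39-fold in OE+Ada and 4.29-fold in EV+Ada cells. CAD, which carries out the opening steps of the route, fell 3.34-fold in OE+Ada and 3.59-fold in EV+Ada cells. DHODH, the mitochondrial dehydrogenase, fell 1.53-fold in OE+Ada and 1.87-fold in EV+Ada cells. UMPS, which makes UMP, had 52.9, 48.0 and 49.5 CPM in OE+Ada libraries and 47.9, 47.0 and 47.4 CPM in OE libraries, and 49.2, 48.3 and 44.5 CPM in EV+Ada libraries and 63.4, 53.1 and 48.7 CPM in EV libraries. Every OE+Ada library lay above every OE library by a small margin, and the ranges overlapped in the empty vector cells, where the fall of 1.16-fold passed the test (log2 fold change -0.22, adjusted p = 0.023). The UMPS call was lost with DESeq2 size factors (log2 fold change -0.17, adjusted p = 0.061), with DESeq2 (adjusted p = 0.05003), in a fit of the EV and EV+Ada libraries alone (adjusted p = 0.0634), without EV replicate 1 and without EV+Ada replicate 3, with adjusted p between 0.00242 and 0.128 when single libraries were omitted. In OE+Ada cells UMPS had a log2 fold change of 0.08 (approximate 95% interval -0.08 to 0.24, adjusted p = 0.374).

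Pyrimidine salvage held the largest rise and opposite movements within a pair of paralogues. UCK1, a uridine-cytidine kinase, had 41.1, 40.5 and 42.5 CPM in OE+Ada libraries, against 15.0, 14.6 and 14.5 CPM in OE libraries. It had 40.6, 42.3 and 45.4 CPM in EV+Ada libraries, against 14.5, 14.5 and 14.3 CPM in EV libraries. Every treated library lay well above every untreated one, and UCK1 rose 2.81-fold in OE+Ada cells (log2 fold change 1.49, SE 0.058, adjusted p = 1.08e-11) and 2.96-fold in EV+Ada cells (log2 fold change 1.56, SE 0.058, adjusted p = 7.49e-12). UCK2, its more abundant paralogue in untreated cells, had 36.6 ± 1.56 CPM in OE+Ada and 154 ± 2.90 CPM in OE cells, and 40.5 ± 5.44 CPM in EV+Ada and 151 ± 4.97 CPM in EV cells (SD, n = 3 each). It fell 4.21-fold in OE+Ada cells (log2 fold change -2.08, SE 0.078, adjusted p = 8.94e-12) and 3.72-fold in EV+Ada cells (log2 fold change -1.89, SE 0.078, adjusted p = 2.11e-11). Per kilobase of exon, UCK1 then stood at 15.9 ± 0.906 CPM and UCK2 at 5.74 ± 0.770 CPM in EV+Ada cells, the reverse of their order in EV cells. The thymidine kinases also parted. TK2 fell 4.23-fold in OE+Ada cells (log2 fold change -2.08) and 3.36-fold in EV+Ada cells (log2 fold change -1.75). TK1, the cytosolic enzyme, had 61.6, 65.9 and 63.8 CPM in OE+Ada libraries and 64.5, 58.0 and 56.9 CPM in OE libraries, and 75.7, 78.8 and 73.8 CPM in EV+Ada libraries and 71.3, 58.9 and 64.5 CPM in EV libraries. The ranges overlapped in overexpressing cells (log2 fold change 0.09, SE 0.069, adjusted p = 0.224) and did not in empty vector cells, where TK1 rose 1.17-fold (log2 fold change 0.23, SE 0.069, adjusted p = 0.00692).

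The genes of thymidylate and dUTP both fell. TYMS had 26.5, 29.9 and 41.7 CPM in OE+Ada libraries, against 267, 282 and 286.5 CPM in OE libraries, and 43.6, 42.3 and 35.0 CPM in EV+Ada libraries, against 317, 276.5 and 264 CPM in EV libraries. Its groups did not overlap, and it fell 8.50-fold in OE+Ada cells (log2 fold change -3.09, SE 0.14, adjusted p = 5.71e-11) and 7.10-fold in EV+Ada cells (log2 fold change -2.83, SE 0.14, adjusted p = 1.28e-10). Of its exon bases, 39.2% lie opposite the gene ENOSF1, and whether the counting used strand is not given in the sources used. DUT fell 3.95-fold in OE+Ada cells (log2 fold change -1.98, SE 0.069, adjusted p = 3.89e-12) and 3.19-fold in EV+Ada cells (log2 fold change -1.68, SE 0.068, adjusted p = 1.88e-11). Of 14 S phase and proliferation genes set beside them, 13 fell and 1 rose in OE+Ada cells, and 12 fell and 2 rose in EV+Ada cells, with median log2 fold changes of -1.61 and -1.63. Their summed level was 3753 to 3817 CPM in OE+Ada and 4743 to 4825 CPM in OE libraries, and 3326 to 3379 CPM in EV+Ada and 4673 to 5318 CPM in EV libraries. MYC, a transcription factor known to act on many nucleotide synthesis genes, had 21.5 ± 3.60 CPM in OE+Ada and 321 ± 7.05 CPM in OE cells (log2 fold change -3.90, SE 0.11, adjusted p = 4.33e-13), and 16.8 ± 1.72 CPM in EV+Ada and 348 ± 21.3 CPM in EV cells (log2 fold change -4.37, SE 0.11, adjusted p = 2.19e-13). The part of these genes in the falls was not tested.

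The nucleotide kinases ranged from some of the strongest falls to almost no movement. AK4, an adenylate kinase of the mitochondrial matrix, fell 8.91-fold in OE+Ada cells (log2 fold change -3.16, SE 0.11, adjusted p = 3.89e-12) and 8.49-fold in EV+Ada cells (log2 fold change -3.08, SE 0.11, adjusted p = 4.51e-12). By estimate this was the largest fall of the 33 genes in each comparison. The next falls lay within its standard error, TYMS (-3.09) in OE+Ada cells, and CTPS1 (-3.07) and NME1 (-3.07) in EV+Ada cells. NME1, a cytosolic nucleoside diphosphate kinase, had 12.3, 15.3 and 14.1 CPM in OE+Ada libraries, against 69.0, 65.2 and 66.6 CPM in OE libraries, and 13.4, 12.9 and 12.8 CPM in EV+Ada libraries, against 140.0, 96.4 and 91.3 CPM in EV libraries. It fell 4.81-fold in OE+Ada cells (log2 fold change -2.27, SE 0.14, adjusted p = 1.22e-09) and 8.39-fold in EV+Ada cells (log2 fold change -3.07, SE 0.14, adjusted p = 6.16e-11). Its neighbour NME2, which encodes a close paralogue, had 161, 182 and 169.8 CPM in OE+Ada libraries and 178, 177 and 176 CPM in OE libraries, and 165, 157 and 171 CPM in EV+Ada libraries and 215, 189.6 and 188 CPM in EV libraries. NME2 fell 1.20-fold in EV+Ada cells (log2 fold change -0.27, SE 0.059, adjusted p = 0.000847) and did not pass the test in OE+Ada cells (log2 fold change -0.05, SE 0.059, adjusted p = 0.437). The readthrough locus NME1-NME2 shares 18.6% of the exon bases of NME1 and 22.9% of those of NME2, so reads of these genes may be split. With the 3 loci summed, the log2 fold change was -0.34 in OE+Ada cells (SE 0.08, adjusted p = 0.000958) and -0.65 in EV+Ada cells (SE 0.08, adjusted p = 2.25e-06). NME4, the mitochondrial member of the family, fell 2.54-fold in OE+Ada and 3.35-fold in EV+Ada cells. Of its exon bases, 15.6% are shared with the gene DECR2 on the same strand, so its reads may be split. GUK1, the guanylate kinase, had 42.9, 47.9 and 41.8 CPM in OE+Ada libraries and 39.9, 36.4 and 38.7 CPM in OE libraries, and 43.1, 44.4 and 40.9 CPM in EV+Ada libraries and 50.9, 47.2 and 48.5 CPM in EV libraries. It rose 1.15-fold in OE+Ada cells (log2 fold change 0.21, SE 0.064, adjusted p = 0.00824) and fell 1.14-fold in EV+Ada cells (log2 fold change -0.19, SE 0.064, adjusted p = 0.0124). The rise of GUK1 was lost with library totals as the only scaling (log2 fold change 0.14, adjusted p = 0.0532) and without OE+Ada replicate 2, with adjusted p between 0.00646 and 0.0529 when single libraries were omitted.

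**Figure D2:**
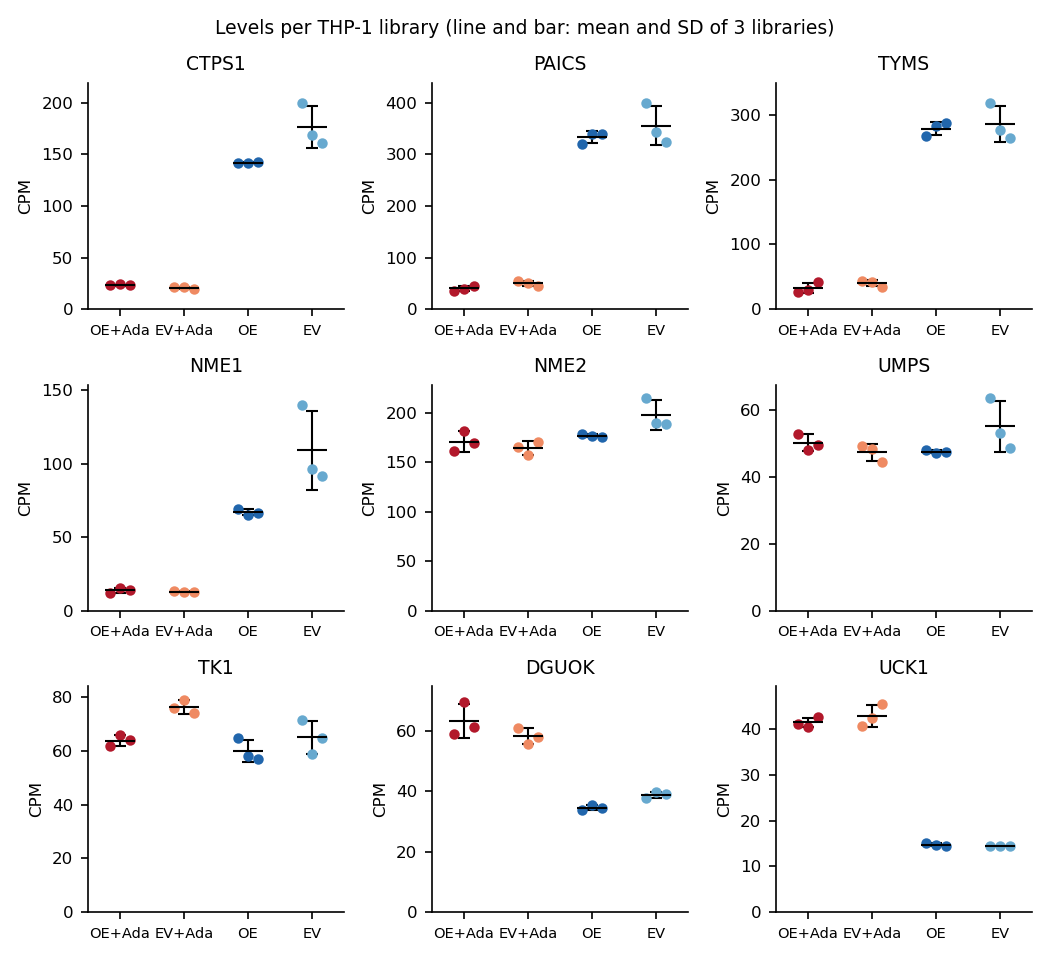
CPM (y axis, from 0) of 9 of the genes in each of the 12 THP-1 libraries, in the order OE+Ada, EV+Ada, OE, EV; points are libraries, and the line and bar give the mean and SD of 3. CTPS1, PAICS, TYMS and NME1 are low in the treated groups, NME2, UMPS and TK1 differ by 1.20-fold or less between treated and untreated groups, and DGUOK and UCK1 are high in the treated groups.

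Other genes of nucleotide handling moved in both directions under the drug, as did all genes tested. Of all genes tested, 41.3% fell and 43.4% rose in OE+Ada cells, and 41.1% fell and 44.2% rose in EV+Ada cells. The counts of the lists below are given beside these shares as a description. Of 8 genes of ribonucleotide reductase and dNTP control, 5 fell and 3 rose in OE+Ada cells, and 5 fell and 2 rose in EV+Ada cells. RRM2, the S phase small subunit of ribonucleotide reductase, fell 4.57-fold in OE+Ada cells and 4.18-fold in EV+Ada cells. RRM2B, a small subunit known as inducible by p53, rose 4.07-fold in OE+Ada and 4.27-fold in EV+Ada cells. Any part of p53 in that rise was not tested. RRM2B had 189, 202 and 197 CPM in OE+Ada libraries and 41.3, 50.9 and 51.9 CPM in OE libraries, and 196, 195 and 196 CPM in EV+Ada libraries and 45.4, 44.8 and 47.5 CPM in EV libraries. Of 10 other nucleotide kinases, 6 fell and 3 rose in OE+Ada cells, and 6 fell and 2 rose in EV+Ada cells. AK3, which uses GTP in the mitochondrial matrix, rose 2.05-fold in OE+Ada and 2.37-fold in EV+Ada cells. Of 9 genes of PRPP supply and its regulators, 7 fell and 2 rose in OE+Ada cells, and 6 fell and 2 rose in EV+Ada cells. RPE, the epimerase of the pentose phosphate route, fell 3.86-fold in OE+Ada and 3.94-fold in EV+Ada cells. Of 20 genes of breakdown and reconversion, 19 were tested, and 10 fell and 6 rose in OE+Ada cells, and 7 fell and 7 rose in EV+Ada cells. Among those that rose, GDA, which deaminates guanine, had 7.44, 7.08 and 7.71 CPM in OE+Ada libraries and 0 counts in every OE library, and 6.41, 7.90 and 7.26 CPM in EV+Ada libraries and 0, 0.0397 and 0.0775 CPM in EV libraries. XDH, which oxidises hypoxanthine and xanthine to urate, had 4.01 ± 0.641 CPM in OE+Ada and 0.0106 ± 0.0183 CPM in OE cells, and 2.76 ± 0.478 CPM in EV+Ada and 0.0331 ± 0.0573 CPM in EV cells. ADA, which deaminates adenosine, fell 3.41-fold in OE+Ada and 2.44-fold in EV+Ada cells.

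S100A9 overexpression without the drug moved, counting both directions, a share of the 33 genes close to that of all genes tested. Each gene that passed moved by less than 2-fold. In OE against EV cells 7 genes fell and 2 rose, where 13% of all genes tested fell and 14.9% rose. The median log2 fold change was -0.07, beside 0.02 over all genes tested. OE and EV also serve as the untreated groups of the drug comparisons, so these contrasts share libraries. NME1 fell the most, to 69.0, 65.2 and 66.6 CPM in OE libraries, against 140.0, 96.4 and 91.3 CPM in EV libraries. All OE libraries lay below all EV libraries, of which replicate 1 was the highest for NME1. The fall was 1.63-fold (log2 fold change -0.71, SE 0.13, adjusted p = 0.00154), and with single libraries omitted its log2 fold change lay between -0.82 and -0.49 and passed each time. With the 3 NME loci summed it was -0.26 (SE 0.08, adjusted p = 0.0235). GUK1 had 39.9, 36.4 and 38.7 CPM in OE libraries, against 50.9, 47.2 and 48.5 CPM in EV libraries, without overlap, and fell 1.28-fold (log2 fold change -0.35, SE 0.064, adjusted p = 0.00172). CTPS1 had 142, 142 and 142 CPM in OE libraries, against 199.5, 169 and 160.5 CPM in EV libraries, and fell 1.24-fold (log2 fold change -0.31, SE 0.066, adjusted p = 0.00431). IMPDH1 fell 1.23-fold (log2 fold change -0.30, SE 0.066, adjusted p = 0.00553). TK2 had 22.8, 21.1 and 21.4 CPM in OE libraries, against 16.4, 16.2 and 18.2 CPM in EV libraries, and rose 1.28-fold (log2 fold change 0.36, SE 0.079, adjusted p = 0.0051). These 5 calls held when any 1 of the 6 libraries was left out.

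The other 4 calls in OE against EV cells were lost without single libraries. PFAS (log2 fold change -0.32, adjusted p = 0.0193, 0.00308 to 0.0666 with single libraries omitted) and NME4 (-0.29, adjusted p = 0.0154, 0.00659 to 0.0813) were each lost without EV replicate 1, OE replicate 2 or OE replicate 3. PRPS1 (-0.18, adjusted p = 0.0457) held only without EV replicate 3, and IMPDH2 (0.33, adjusted p = 0.0496) only without OE replicate 2. IMPDH2 had 360.1, 279 and 307 CPM in OE libraries, against 263, 245 and 243 CPM in EV libraries, and its rise was also lost with DESeq2 size factors (adjusted p = 0.0624, against 0.0386 to 0.189 with single libraries omitted) and with DESeq2 (adjusted p = 0.0903). DGUOK, NME2 and UMPS, lower in every OE library than in any EV library, did not pass in edgeR (adjusted p = 0.0679, 0.0603 and 0.0644) and passed in DESeq2 (adjusted p = 0.0261, 0.0186 and 0.0263). How many of all genes separated in this way or passed in DESeq2 is not reported here, so these 3 are given as a description. Of the genes that did not pass, ADSS1 had 2.04, 1.78 and 1.44 CPM in OE and 0.766, 1.07 and 1.51 CPM in EV libraries (log2 fold change 0.65, approximate 95% interval 0.16 to 1.15, adjusted p = 0.0675). TYMS, PAICS, AK4 and UCK1 had log2 fold changes of -0.04, -0.09, -0.03 and 0.03, with approximate 95% intervals of -0.29 to 0.21, -0.28 to 0.09, -0.21 to 0.16 and -0.09 to 0.14.

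**Figure D3:**
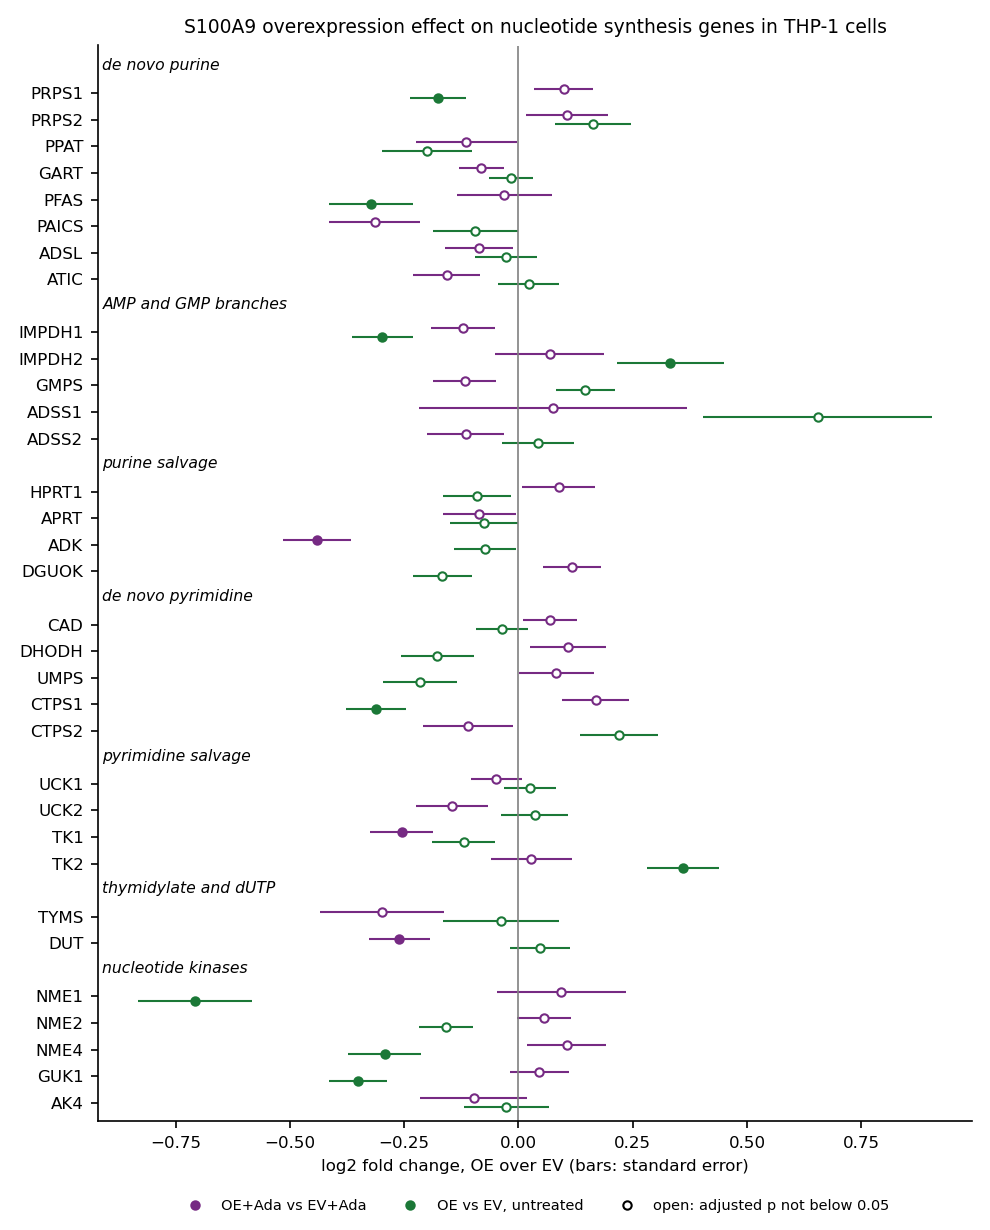
Log2 fold change (x axis, OE over EV) of the 33 genes by role in drug-treated (purple) and untreated (green) THP-1 cells; points are estimates from 3 against 3 libraries, bars are standard errors and open points did not pass the test. NME1 (-0.71) and GUK1 (-0.35) are low in untreated cells, and ADK (-0.44) is low in treated cells.

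Under the drug, overexpression left 3 of the 33 genes lower and none higher by the edgeR test. In OE+Ada against EV+Ada cells 4.8% of all genes tested fell and 3.69% rose, and 6 of the 33 genes had an unadjusted p below 0.05. DESeq2 called 4 of them. ADK had 13.1, 13.1 and 14.2 CPM in OE+Ada libraries, against 19.3, 18.4 and 17.2 CPM in EV+Ada libraries. The groups did not overlap, and ADK fell 1.36-fold (log2 fold change -0.44, SE 0.074, adjusted p = 0.00379). The ADK call held whichever of the 6 libraries was omitted. DUT had 93.7, 101 and 102 CPM in OE+Ada libraries, against 126, 119 and 111 CPM in EV+Ada libraries, and fell 1.20-fold (log2 fold change -0.26, SE 0.067, adjusted p = 0.0302). The DUT call held in 1 of the 6 fits that left out a library, the fit without EV+Ada replicate 3, with adjusted p between 0.0241 and 0.12. TK1 had 61.6, 65.9 and 63.8 CPM in OE+Ada libraries, against 75.7, 78.8 and 73.8 CPM in EV+Ada libraries, also without overlap (log2 fold change -0.26, SE 0.069, adjusted p = 0.0372). The TK1 call held in none of those fits, where its adjusted p lay between 0.0523 and 0.15. Of the 14 S phase and proliferation genes, 7 fell and 2 rose in the same comparison, and their part in the DUT and TK1 values was not tested. PAICS had a log2 fold change of -0.31 (approximate 95% interval -0.51 to -0.12, adjusted p = 0.0678), and passed with library totals as the only scaling (adjusted p = 0.019) and with DESeq2 (adjusted p = 0.0127), against 0.0335 to 0.239 with single libraries omitted. NME1, which fell with overexpression in untreated cells, had 13.9 ± 1.49 CPM in OE+Ada and 13.0 ± 0.297 CPM in EV+Ada cells (log2 fold change 0.09, SE 0.14, adjusted p = 0.744).

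The drug effect differed between the vectors for 8 of the 33 genes by the interaction test, which takes the effect in OE cells minus that in EV cells. It was higher for 6 and lower for 2, where 8.04% and 11.2% of all genes tested were. Over both directions 24.2% of the 33 genes passed, beside 19.3% of all genes tested, so the count is given as a description. With library totals as the only scaling the split was 3 higher and 4 lower. NME1 differed most (0.80, SE 0.19, adjusted p = 0.0115): its log2 fold change under the drug was -2.27 in OE cells and -3.07 in EV cells. Its treated groups lay close together, at 13.9 ± 1.49 CPM in OE+Ada and 13.0 ± 0.297 CPM in EV+Ada cells, while its untreated groups stood apart, at 66.9 ± 1.95 CPM in OE and 109 ± 26.8 CPM in EV cells. With the 3 NME loci summed the difference was 0.31 (SE 0.11, adjusted p = 0.0625) and did not pass. CTPS1 differed by 0.48 (adjusted p = 0.006), and GUK1 by 0.40 (adjusted p = 0.00976), with GUK1 at 0.21 in OE and -0.19 in EV cells. These 3 calls held when any 1 of the 12 libraries was left out. The calls of NME4 (0.40, adjusted p = 0.0313), DGUOK (0.28, adjusted p = 0.0419) and PRPS1 (0.28, adjusted p = 0.0447) held in 4, 3 and 2 of those 12 fits, with adjusted p of 0.0134 to 0.0784 for NME4, 0.0305 to 0.102 for DGUOK and 0.0176 to 0.108 for PRPS1. All 3 were lost with library totals as the only scaling, at adjusted p = 0.0553, 0.095 and 0.0718. Of the genes with a more negative drug effect in OE cells, ADK (-0.37, adjusted p = 0.0226) held in 5 and DUT (-0.31, adjusted p = 0.0365) in 3 of the 12 fits.

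S100A9 knockdown in U937 cells left 1 of the 33 genes past the test. In shS100A9 against EV cells CTPS2 rose, where 0.23% of the 13016 genes tested rose and 1.54% fell, and 3 of the 33 genes had an unadjusted p below 0.05. The median log2 fold change was -0.02, beside 0.01 over all genes tested. CTPS2 had 17.0, 14.9 and 22.0 CPM in shS100A9 libraries, against 7.80, 9.32 and 8.18 CPM in EV libraries. All shS100A9 libraries lay above all EV libraries, and the rise was 2.13-fold (log2 fold change 1.09, SE 0.18, adjusted p = 0.0401). The call was lost in 5 of the 6 fits that left out a library and held in the fit without EV replicate 2, with adjusted p between 0.0487 and 0.197. It was also lost with library totals as the only scaling (adjusted p = 0.0538).

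Libraries of the same U937 group differed widely for several of the 33 genes. NME1 had 138, 125 and 41.2 CPM in shS100A9 replicates 1, 2 and 3, against 125, 62.8 and 119 CPM in EV replicates 1, 2 and 3. PFAS had 84.8, 99.4 and 43.6 CPM in shS100A9 libraries, against 99.7, 35.6 and 96.2 CPM in EV libraries, and CTPS1 had 139.5, 147 and 72.8 CPM in shS100A9 libraries, against 175, 84.8 and 170.0 CPM in EV libraries. For these 3 genes shS100A9 replicate 3 and EV replicate 2 were the lowest of their groups. Their approximate 95% intervals for the log2 fold change were accordingly wide, at -0.92 to 0.89 for NME1, -0.89 to 0.84 for PFAS and -0.95 to 0.43 for CTPS1. MYC was likewise low in EV replicate 2, with 412, 187 and 395 CPM in EV libraries beside 385, 393 and 378 CPM in shS100A9 libraries. The readthrough locus NME1-NME2 had 18.1, 91.3 and 45.8 CPM in shS100A9 libraries and 62.6, 0 and 68.3 CPM in EV libraries.

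PRPS1, a maker of PRPP, and HPRT1, a user of it, had non-overlapping groups without passing the test. PRPS2, the other maker of PRPP, had a log2 fold change of 0.20 (adjusted p = 0.492). PRPS1 had 78.9, 75.9 and 65.6 CPM in shS100A9 libraries, against 127, 95.3 and 132 CPM in EV libraries (log2 fold change -0.68, SE 0.15, adjusted p = 0.0946). HPRT1 had 77.3, 72.7 and 56.7 CPM in shS100A9 libraries, against 112, 85.4 and 108 CPM in EV libraries (log2 fold change -0.56, SE 0.16, adjusted p = 0.175). With DESeq2 PRPS1 and HPRT1 passed, at adjusted p = 0.00233 for PRPS1 and 0.0343 for HPRT1. The shares of all genes that had non-overlapping groups or passed with DESeq2 are not reported here. PRPS1 also passed in edgeR without EV replicate 2, with adjusted p between 0.0297 and 0.357 when single libraries were omitted. ADSS1 had 2.72, 2.51 and 5.68 CPM in shS100A9 libraries and 1.48, 2.74 and 1.16 CPM in EV libraries, which overlapped (log2 fold change 1.02, SE 0.45, adjusted p = 0.379).

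Without EV replicate 2 and shS100A9 replicate 3, a setting added after the data were seen, 12 of the 33 genes passed in shS100A9 against EV cells, 6 higher and 6 lower. In the same fit 15.2% of the 13055 genes tested were higher and 17.7% lower. The genes that rose then were CTPS2 (log2 fold change 1.00, adjusted p = 0.000353), ADSS1 (0.99), IMPDH2 (0.45), CAD (0.18), PRPS2 (0.16) and GART (0.14). The genes that fell were PRPS1 (-0.74, adjusted p = 6.9e-05), HPRT1 (-0.55, adjusted p = 0.000342), CTPS1 (-0.26), AK4 (-0.24), IMPDH1 (-0.22) and ADSL (-0.21). CTPS2 and CTPS1, the paralogues of CTP synthase, were thus called in opposite directions in that fit. IMPDH2 and IMPDH1, and PRPS2 and PRPS1, were so as well. With the shares of all genes called in each direction, these pairs are given as a description. The fit rests on 2 libraries per group.

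**Figure D4:**
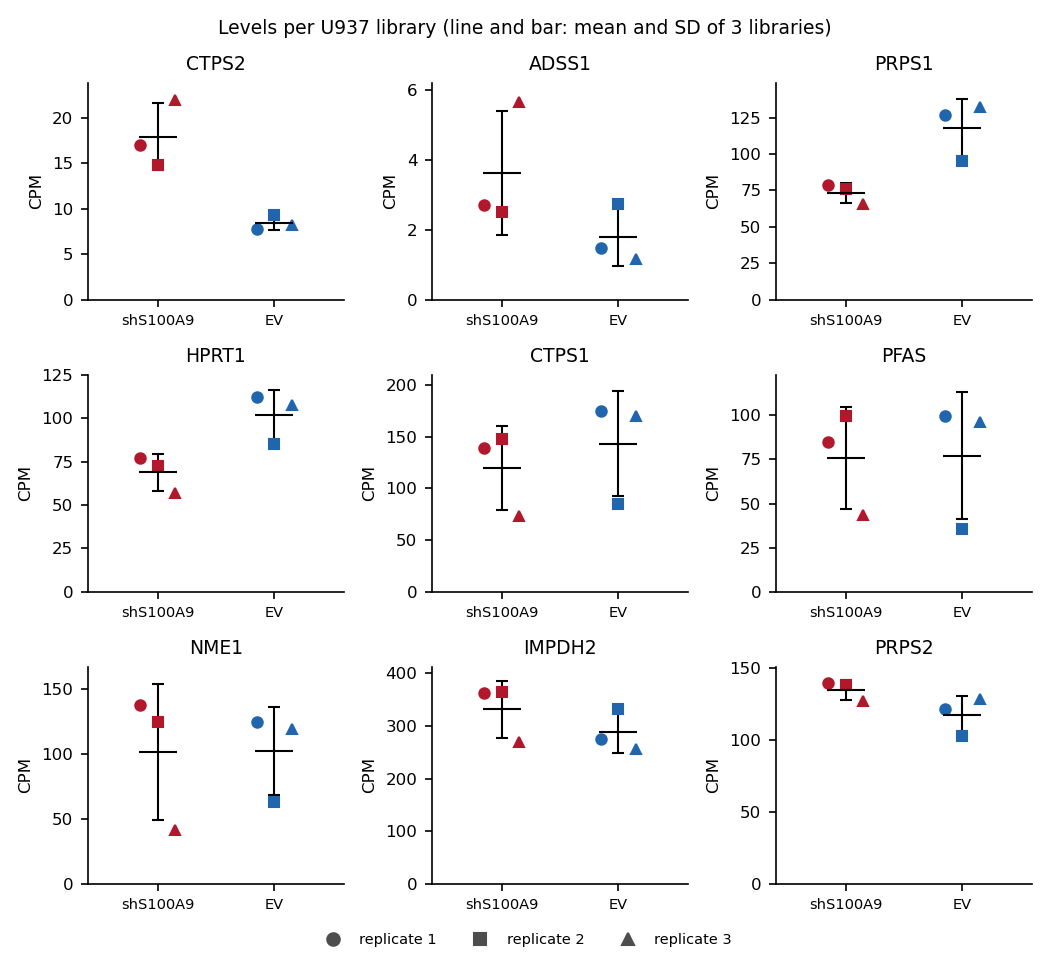
CPM (y axis, from 0) of 9 of the genes in each of the 6 U937 libraries, shS100A9 left and EV right; marker shapes give the replicate number, and the line and bar give the mean and SD of 3. CTPS2 is higher in all shS100A9 libraries, and for CTPS1, PFAS and NME1 shS100A9 replicate 3 and EV replicate 2 lie below the others of their groups.

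The empty vector libraries of the lines were also compared, on a scale fitted to those 6 libraries. Line, vector preparation and culture cannot be told apart here. In U937 EV against THP-1 EV cells 4 of the 33 genes were higher and 2 lower, where 11.4% of the 13695 genes tested were higher and 14.8% lower. PRPS2 had 121, 103 and 128 CPM in U937 EV libraries, against 76.0, 66.3 and 71.6 CPM in THP-1 EV libraries (log2 fold change 0.72, SE 0.10, adjusted p = 0.00258). PRPS1 had 127, 95.3 and 132 CPM in U937 EV libraries, against 75.4, 73.6 and 68.7 CPM in THP-1 EV libraries (log2 fold change 0.70, SE 0.13, adjusted p = 0.00769). Both makers of PRPP were higher in every U937 library than in any THP-1 library. CTPS2 had 7.80, 9.32 and 8.18 CPM in U937 EV libraries, against 13.3, 14.6 and 16.0 CPM in THP-1 EV libraries, all lower in U937 (log2 fold change -0.80, SE 0.13, adjusted p = 0.00404). HPRT1 (0.44, adjusted p = 0.0351), UCK2 (0.27, adjusted p = 0.0366) and TK1 (-0.45, adjusted p = 0.0283) also passed. PRPS2, PRPS1 and CTPS2 held in all 6 fits that left out a library, HPRT1 and UCK2 held in 1 and TK1 in 2 of them. Without U937 EV replicate 2, which stood apart, 17 genes passed, 12 higher and 5 lower, where 19.7% of the 13909 genes tested in that fit were higher and 24.2% lower. TYMS, DUT and NME2 had log2 fold changes of -0.08, 0.07 and 0.09 between the lines, with approximate 95% intervals of -0.25 to 0.10, -0.06 to 0.21 and -0.07 to 0.25.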

How the data were processed

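RNA sequencing of 18 libraries was analysed. The authors deposited raw counts per Ensembl gene, 1 column per library, as whole numbers without normalization. HISAT2 2.0.4 is named in the submitters' processing notes, while neither counter, build, annotation nor strandedness was found (not given in the sources used here), so reads of overlapping genes and close paralogues may be shared. Groups were taken from the titles. Symbols matched 18642 of 18670 genes, and exon lengths came from GENCODE 29 (GRCh38). Promoter windows came from RefSeq.

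Genes were tested with edgeR 4.0.16 in R 4.3.3 (quasi-likelihood F), with TMM factors, filterByExpr and Benjamini-Hochberg adjustment over all genes tested. "Rose", "fell" and "passed" mean an adjusted p under 0.05. U937 comparisons used 6 libraries (13016 genes), THP-1 comparisons 1 fit of 12 libraries (15403 genes), and the line comparison the 6 empty vector libraries (13695 genes). Standard errors were derived from the log2 fold change and its F, and approximate 95% intervals from a normal approximation. Alternatives were DESeq2 1.42.0, other scalings, filters, a replicate block, and each library left out.

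The named genes were the 33 members by role, S100A9, MYC, S phase genes, and up to 3 genes per direction with the smallest p in each other nucleotide list. The members and lists were chosen with earlier results of these data known. Some genes that this rule names are not reported here.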

Additional observations from a re-analysis of the deposited data

Results flagged for a closer look

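The effect of Adavivint differed between S100A9-overexpressing and empty vector THP-1 cells for 8 of the 33 genes (24.2%) by the interaction test in edgeR. Of all genes tested 19.3% passed it, so the count is no result about the 33 genes as a set. The 8 genes are listed because each passed. The values are the log2 effect in OE cells minus that in EV cells. They were 0.80 for NME1, 0.48 for CTPS1, 0.40 for NME4, 0.40 for GUK1, 0.28 for DGUOK, 0.28 for PRPS1, -0.37 for ADK and -0.31 for DUT. For NME1 the libraries with the drug lay at 12.3, 15.3 and 14.1 CPM in OE+Ada and 13.4, 12.9 and 12.8 CPM in EV+Ada, and those without it at 69.0, 65.2 and 66.6 CPM in OE and 140.0, 96.4 and 91.3 CPM in EV.

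The same test passed for 9 of the 46 genes tested in the other nucleotide lists (19.6%), close to the 19.3% of all 15403 genes tested. They are therefore no result about these lists, and their values are given as a description. The difference was 0.44 for DTYMK, the thymidylate kinase, and -0.23 for SAMHD1, which degrades dNTPs. It was -0.55 for TKT, the transketolase. Among breakdown genes it was -0.63 for NT5C3A, -0.48 for ADA, -0.42 for DPYD, 0.33 for PNP and 0.32 for CDA. For GDA the fitted difference of 4.06 rests on 0 counts in all OE libraries and 0, 2 and 4 counts in EV libraries, depends on the prior count and gives no bound.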

How the results depend on the processing

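The number of the 33 genes past the test stayed within 1.5 times of the reported count under every setting tried for the drug comparisons, at 32 or 33 in EV+Ada against EV cells and 29 to 31 in OE+Ada against OE cells. In shS100A9 against EV cells, where 1 gene passed, 0 passed with library totals as the only scaling, 3 with DESeq2, 0 with the replicate number as a block, 12 without the 2 libraries that stood apart, and 0 to 2 when single libraries were left out. In OE against EV cells the count of 9 ranged from 5 to 12 without single libraries. In OE+Ada against EV+Ada cells the count of 3 became 1 with the replicate block and 1 to 4 without single libraries. The interaction count of 8 became 5 with the replicate block, 6 without a filter on low counts and 3 to 9 without single libraries. DESeq2 kept the 8 and added GMPS (adjusted p = 0.0483), NME2 (adjusted p = 0.0323) and UMPS (adjusted p = 0.0386). In U937 EV against THP-1 EV cells the count of 6 ranged from 3 to 17 without single libraries. With U937 EV replicate 2 or shS100A9 replicate 3 left out singly, the knockdown count was 2 or 0. Of the single gene values under all settings, 2959 kept their side of the threshold, 60 passed it newly, 116 no longer passed and 0 turned round. Other scalings moved the median of all genes by at most 0.066 on the log2 scale. Every scaling tried sets a gene against the other RNA of its library, so none could show a change in total RNA per cell. Same-numbered replicates correlated between -0.55 and 0.29 in U937 and between -0.10 and 0.10 in THP-1 cells. The THP-1 values showed little sign of pairing by number. In U937 cells the 2 libraries that stood apart have different numbers and weigh on these values, so pairing cannot be judged there. The replicate block gave 8 genes in OE against EV cells, 33 and 30 in the drug comparisons with EV and OE, and 5 between the lines. The causes of these shifts were not tested. Low counts limit the precision for ADSS1, and differences that are small beside the spread of 3 libraries a group may have gone undetected.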

Other observations

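Between the lines, some genes that degrade or control nucleotides had larger log2 fold changes than any of the 33 genes, of which CTPS2 had the largest (-0.80). SAMHD1, the dNTP hydrolase, was 12.2-fold lower in U937 EV than in THP-1 EV cells (log2 fold change -3.61, SE 0.12, adjusted p = 3.5e-05). NT5E, the ectonucleotidase CD73, had 0, 0 and 1 counts in U937 EV libraries, against 42, 54 and 55 counts in THP-1 EV libraries. AK5, an adenylate kinase best known from brain, was 27.9-fold higher in U937 EV cells (log2 fold change 4.80, SE 0.20, adjusted p = 3.8e-05). TYMP, the thymidine phosphorylase, was 2.21-fold lower in U937 EV cells (log2 fold change -1.14, SE 0.13, adjusted p = 0.00105). AMPD1, the AMP deaminase best known from muscle, had 124, 107 and 123 counts in OE+Ada libraries and 78, 72 and 163 counts in EV+Ada libraries, and 0 counts in all 6 untreated THP-1 libraries.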
